A study of Mus musculus with 8 samples.

Results

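The 37 transcripts of the mouse mitochondrial genome were followed in injured kidney. They were taken as every gene of the deposited table whose Ensembl identifier maps to a symbol starting mt-, which gave 37 of 34450 genes: 13 coding genes, 2 rRNA genes and 22 tRNA genes. All 37 lay on chromosome M of GRCm38 in the GENCODE M21 annotation, and all 37 passed the filter on low values, a mean of at least 0.5 FPKM. The hypoxia group (HxIRI, libraries 1 to 4) was kidney of 8-week-old C57BL/6J mice that were exposed to hypoxia and then to ischaemia-reperfusion injury. The normoxia group (IRI, libraries 5 to 8) was kidney of mice of that strain and age kept in normoxia before the same injury. Kidneys were taken at day 3, and no uninjured kidney was analysed here. The comparison asks what low oxygen before the injury did to kidney RNA after it. Separate mice are not stated for the libraries of a group, so a p-value here weighs a difference against the spread of these libraries alone, which could be technical.

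The mitochondrial genome is a small circle present in many copies per cell. Each strand is copied by a mitochondrial RNA polymerase into long precursors, and the tRNAs that sit between the mRNAs and rRNAs are cut out of them, which frees the pieces on either side. The mRNAs encode membrane subunits of respiratory complexes I, III and IV and of ATP synthase (complex V), the rRNAs build the mitochondrial ribosome, and nuclear genes supply all remaining subunits. In the kidney the proximal tubule and the thick ascending limb are rich in mitochondria and depend on them for solute transport.

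Values are FPKM as the authors deposited them, fragments corrected for transcript length and library size. Judged by the steps between low FPKM values, depth was about 8480000 to 14200000 fragments per hypoxia library and 9040000 to 14600000 per normoxia library. Although the libraries were prepared for poly(A) RNA, the percent of assigned fragments in ribosomal loci was 40.9, 21.5, 66.3 and 67.4 in hypoxia libraries 1 to 4, against 13.5, 63.0, 28.0 and 72.5 in normoxia libraries 5 to 8. For normoxia library 5, nuclear genes with over 3000 bases of exon had a median log2 difference of -0.49 from the median of the other 7 libraries. It was 0.47 for genes of 500 to 3000 bases and 0.22 for genes under 500 bases. The other libraries were not measured in this way, so these values alone do not set library 5 apart. The members' changes are also given from a fit without library 5, an alternative chosen with earlier results of these data known. The tRNA genes, of 59 to 75 bases, are shorter than the fragments such libraries are usually made of, which makes their FPKM less firm than that of an mRNA. The coding members rested on at least 1179 estimated fragments in every library and the rRNAs on at least 45051, whereas 7 tRNAs had fewer than 10 in at least 1 library.

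Of the 37 genes, 28 lay on the plus strand of the annotation and 9, mt-Nd6 and 8 tRNA genes, on the minus strand. The tRNA sequences are shown for 6 genes on which the results turn: 4 in which normoxia library 5 stood far from the rest, mt-Te as the most abundant, and mt-Tl1, which follows the rRNAs and differed little. They are written 5′ to 3′ as RNA-sense DNA letters from the GENCODE M21 transcripts of GRCm38, with the anticodon in capitals. mt-Th, mt-Ts2 and mt-Tl2, for histidine, serine and leucine, form an unbroken run between mt-Nd4 and mt-Nd5, at chrM:11546-11612, chrM:11613-11671 and chrM:11671-11741 on the plus strand. mt-Tg, for glycine, lies between mt-Co3 and mt-Nd3 at chrM:9391-9458 on the plus strand. mt-Te, for glutamate, is at chrM:14071-14139 on the minus strand, next to mt-Nd6. mt-Tl1, for leucine, is at chrM:2676-2750 on the plus strand, between mt-Rnr2 and mt-Nd1.
mt-Th: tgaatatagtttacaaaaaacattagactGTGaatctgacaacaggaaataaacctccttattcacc
mt-Ts2: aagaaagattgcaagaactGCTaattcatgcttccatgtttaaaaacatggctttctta
mt-Tl2: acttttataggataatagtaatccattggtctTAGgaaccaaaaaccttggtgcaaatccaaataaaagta
mt-Tg: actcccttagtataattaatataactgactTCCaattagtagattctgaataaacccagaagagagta
mt-Te: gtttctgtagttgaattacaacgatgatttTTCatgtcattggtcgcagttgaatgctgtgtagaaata
mt-Tl1: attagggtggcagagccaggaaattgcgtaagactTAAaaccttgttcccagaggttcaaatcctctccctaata

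The mRNAs are packed so closely that 2 neighbouring pairs share bases on the same strand, and reads in the shared stretch cannot be assigned to either gene alone. The last 63 bases of mt-Atp8, at chrM:7907-7969, hold the 43 bases that also open mt-Atp6, in capitals. The last 27 bases of mt-Nd4l, at chrM:10147-10173, hold the 7 bases that also open mt-Nd4, in capitals. mt-Nd5 and mt-Nd6 share 14 bases on opposite strands.
end of mt-Atp8: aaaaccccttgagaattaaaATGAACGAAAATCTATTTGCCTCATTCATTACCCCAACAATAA
end of mt-Nd4l: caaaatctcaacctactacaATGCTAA

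The ends of the coding genes bear on how poly(A) libraries capture them. In mammalian mitochondria a short poly(A) tail is added to most mRNAs and completes the stop codon of those that end in a bare T or TA; in human cells the Nd6 transcript is an exception with little or no tail. Of the 13 coding genes, 10 were annotated with a whole stop codon and 3, mt-Co3, mt-Nd4 and mt-Cytb, ended in a lone T. The last 24 bases are shown for these 3 and for mt-Nd1 and mt-Nd6 as genes with a whole stop codon, with the stop codon or its remnant in capitals. They lie at chrM:9367-9390, chrM:11521-11544, chrM:15265-15288 and chrM:3684-3707 on the plus strand, and at chrM:13552-13575 on the minus strand for mt-Nd6. The minus-strand gene also had another base make-up, with 28.1% G and 5.97% C against 5.88% to 16.1% G and 22.1% to 29.97% C in the 12 plus-strand coding genes.
last 24 bases of mt-Co3: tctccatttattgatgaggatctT
last 24 bases of mt-Nd4: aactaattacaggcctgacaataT
last 24 bases of mt-Cytb: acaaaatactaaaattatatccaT
last 24 bases of mt-Nd1: gcgggagtaccaccatacataTAG
last 24 bases of mt-Nd6: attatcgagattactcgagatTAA

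These transcripts were among the most abundant in the table: 11 of the 13 coding genes were in the 20 genes with the highest mean FPKM, and all 13 were in the top 30. The summed FPKM of the 13 coding genes was 104833, 150016, 80844 and 69249.7 in hypoxia libraries 1 to 4, against 191199, 43204, 63805 and 23853 in normoxia libraries 5 to 8. The 4 hypoxia libraries were all above normoxia libraries 6, 7 and 8, and normoxia library 5 was above them all. The mean was 101236 ± 35737 after hypoxia and 80516 ± 75571 after normoxia (SD, n = 4 each), and without library 5 the normoxia mean was 43621 ± 19979 (SD, n = 3). In whole-kidney RNA, fewer cells of a mitochondria-rich type and less mitochondrial RNA per cell cannot be told apart.

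No transcript of the mitochondrial genome passed the test with all 8 libraries as deposited. By limma with Benjamini-Hochberg adjustment over 14444 genes, 0 of the 37 were called higher after hypoxia and 0 lower, at a background of 0.907% of all genes called (0.305% higher and 0.602% lower). Their adjusted p-values ran between 0.440 and 0.999. At an unadjusted p under 0.05 there was 1 member, mt-Rnr1, at a background of 9.36% of all genes. The log2 change, hypoxia minus normoxia, was positive for 12 of 13 coding genes and both rRNAs, and for 7 of 22 tRNAs. Its median was 0.83 over the coding genes and -0.48 over the tRNAs, against -0.14 over all genes tested. TMM scaling, which sets the libraries to a common level by a trimmed mean over genes, moved the median of all genes to 0.016 and that of the coding genes to 1.03. It also called 0 of the 37, at a background of 2.53%, as did quantile normalization, at a background of 4.35%.

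Leaving out normoxia library 5 changed this. TMM scaling without that library, called the 7-library scaled fit here, gave a positive log2 change for 37 of 37 members. It called 12 of them higher and 0 lower, at a background of 11.1% of all genes called (5.77% higher and 5.32% lower). The mRNAs among them were mt-Nd1, mt-Nd2, mt-Nd4, mt-Cytb, mt-Co1, mt-Co2, mt-Co3, mt-Atp8 and mt-Atp6. The tRNAs were mt-Te, mt-Td and mt-Ts1, of which mt-Td and mt-Ts1 rested on very few fragments, given with their values below. The median log2 change was 1.58 over the 13 coding genes and 0.88 over the 22 tRNAs, against 0.025 over all genes tested. Leaving out library 5 from the values as deposited, with no scaling, called 0. It gave 37 of 37 positive, with a median log2 change of 0.88. The share of all genes called and their median change in that unscaled fit are not given here, so these counts have no background. The sign in unscaled fits depended on which normoxia library was dropped. Unscaled, 14 of 37 were positive without library 8 (median -0.38) and 16 of 37 without library 6 (median -0.073). Without library 7 the count was 21 of 37 (median 0.096), as with all 8 libraries (median 0.20). The summed FPKM of nuclear protein-coding genes was 200954, 72261, 166365 and 50007 in normoxia libraries 5 to 8. The part of such level differences in these signs was not tested, and the medians over all genes in these fits are not given here. With the values as deposited, 0 of the 37 had groups that did not overlap, at a background of 4.92%. For 9 members every hypoxia library lay above normoxia libraries 6, 7 and 8, at a background of 2.94%. These were mt-Nd2, mt-Nd4l, mt-Nd4, mt-Nd5, mt-Nd6, mt-Cytb, mt-Atp8, mt-Tm and mt-Te.

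**Figure D1:**
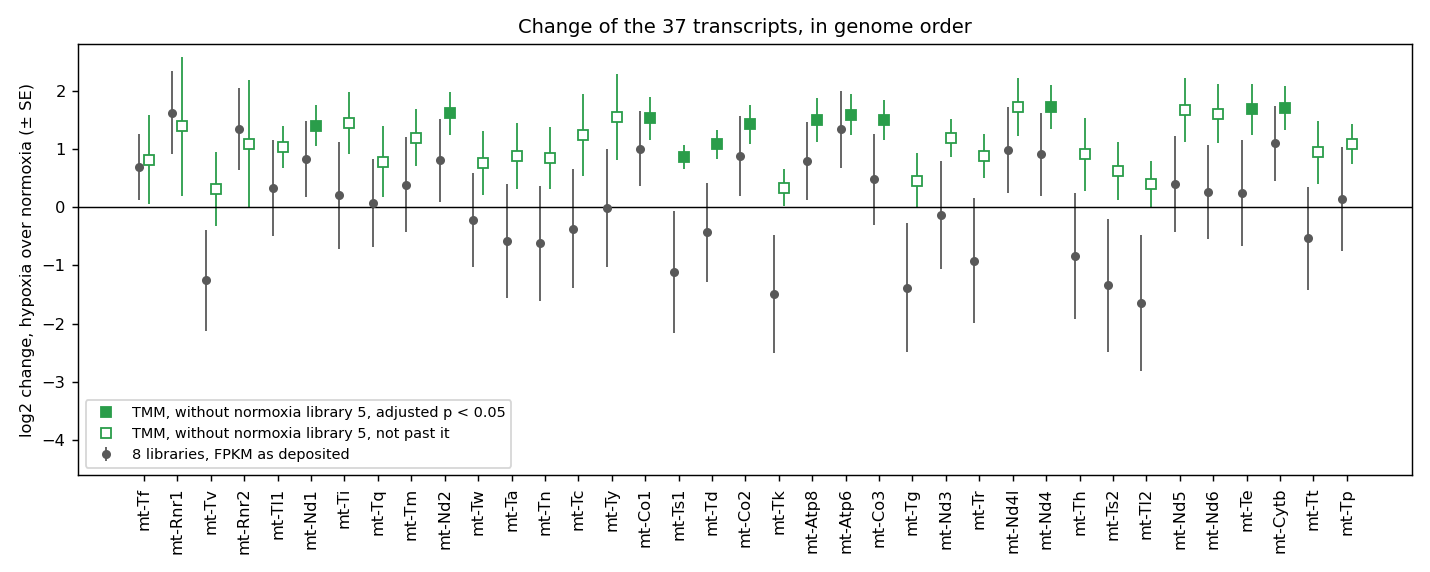
Log2 change, hypoxia over normoxia, of each of the 37 transcripts in genome order, with bars of ± 1 SE, from all 8 libraries as deposited (grey circles) and from TMM-scaled values without normoxia library 5 (green squares, filled where the limma adjusted p was under 0.05). The grey values lie on both sides of 0 with none past the test, and all 37 green squares lie above 0, 12 of them filled.

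The plot of changes along the genome shows that both fits gave close estimates for mt-Tf, the rRNAs and mt-Atp6 and lay furthest apart for tRNAs, such as mt-Tl2, mt-Ts1 and mt-Ts2. The rRNAs had wide errors in the 7-library scaled fit. The members are taken by role, first the rRNAs, then the mRNAs by respiratory complex, then the tRNAs. A log2 change is given first from all 8 libraries as deposited and then from the 7-library scaled fit, with limma's adjusted p for each.

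mt-Rnr1 (ENSMUSG00000064337) encodes the 12S rRNA of the small mitochondrial ribosomal subunit and ranked 4 of all genes by mean FPKM. It had 21094, 13501, 58924 and 62205 FPKM in hypoxia libraries 1 to 4, against 3409, 28009, 5128 and 23681 FPKM in normoxia libraries 5 to 8. mt-Rnr2 (ENSMUSG00000064339), the 16S rRNA of the large subunit, ranked 5 and had 17478, 11959, 37294 and 40426 FPKM in hypoxia libraries 1 to 4, against 2865, 23677, 5046 and 22098 FPKM in normoxia libraries 5 to 8. Hypoxia libraries 3 and 4 were highest for both rRNAs, normoxia library 5 was lowest for both, and the groups overlapped. The log2 change of mt-Rnr1 was 1.62 ± 0.71 (SE, adjusted p = 0.44) as deposited and 1.39 ± 1.19 (SE, adjusted p = 0.538) in the 7-library scaled fit. For mt-Rnr2 the values were 1.35 ± 0.70 (SE, adjusted p = 0.6) and 1.08 ± 1.09 (SE, adjusted p = 0.614). The percent of assigned fragments in both rRNAs was 5.15, 3.43, 12.3 and 13.02 in hypoxia libraries 1 to 4, against 0.980, 6.89, 1.42 and 6.14 in normoxia libraries 5 to 8. These shares were high in the libraries with large shares of ribosomal loci as a whole and low in normoxia libraries 5 and 7, which had 13.5% and 28.0% of their fragments in such loci. A fit with that share as a covariate called mt-Rnr1 higher, with mt-Co1 and mt-Cytb, at a background of 0.623% of genes called higher. The share holds the fragments of mt-Rnr1 and mt-Rnr2 themselves, so for the rRNAs that fit adjusts in part for the value it tests, and the part of ribosomal RNA in their levels was not tested.

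Complex I, NADH dehydrogenase, takes electrons from NADH, and 7 of its membrane subunits are mitochondrial. mt-Nd1 (ENSMUSG00000064341), which helps form the ubiquinone site, had 10092, 14303, 7573 and 6732 FPKM in hypoxia libraries 1 to 4, against 9156, 4066, 7532 and 2663 FPKM in normoxia libraries 5 to 8. mt-Nd2 (ENSMUSG00000064345), a subunit of the proton-pumping arm, had 7004, 9531, 6070.1 and 5159 FPKM in hypoxia libraries 1 to 4, against 11151, 2903, 4458 and 1570.0 FPKM in normoxia libraries 5 to 8. mt-Nd4 (ENSMUSG00000064363), also of the pumping arm, had 6337, 8191, 5551 and 4552 FPKM in hypoxia libraries 1 to 4, against 9286, 2496, 3242 and 1421 FPKM in normoxia libraries 5 to 8. In all 3 the hypoxia libraries were above normoxia libraries 6 and 8. Library 7 lay within the hypoxia range only for mt-Nd1. The log2 changes were 0.83 ± 0.66 (SE, adjusted p = 0.865) for mt-Nd1, 0.80 ± 0.71 (SE, adjusted p = 0.898) for mt-Nd2 and 0.90 ± 0.71 (SE, adjusted p = 0.864) for mt-Nd4 as deposited. In the 7-library scaled fit all 3 passed, with 1.40 ± 0.35 (SE, adjusted p = 0.0417), 1.61 ± 0.37 (SE, adjusted p = 0.0297) and 1.72 ± 0.38 (SE, adjusted p = 0.0261) in the same gene order.

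mt-Nd3 (ENSMUSG00000064360), a small subunit at the junction of the arms of complex I, had 2249.7, 2659, 1058 and 806 FPKM in hypoxia libraries 1 to 4, against 13816, 772, 1860.2 and 375 FPKM in normoxia libraries 5 to 8. mt-Nd4l (ENSMUSG00000065947), encoded just before mt-Nd4, had 2456, 3278, 3150.3 and 2754 FPKM in hypoxia libraries 1 to 4, against 3583, 1332, 1098 and 873 FPKM in normoxia libraries 5 to 8. The hypoxia libraries spanned a narrow range for mt-Nd4l, between 2456 and 3278 FPKM, all above normoxia libraries 6, 7 and 8. mt-Nd5 (ENSMUSG00000064367), the pump subunit at the far end of the membrane arm, had 2715, 4483, 5026 and 3776 FPKM in hypoxia libraries 1 to 4, against 21882, 1772, 1657 and 1174 FPKM in normoxia libraries 5 to 8. mt-Nd6 (ENSMUSG00000064368), the only mRNA read from the minus strand, had 6252, 11064, 10962 and 6995 FPKM in hypoxia libraries 1 to 4, against 61426, 3676, 5001 and 2253 FPKM in normoxia libraries 5 to 8. Library 5 was the highest of the 8 for all 4 genes, and for mt-Nd6 it was 9.82 times the median of the other 7. None of the 4 passed in either fit. As deposited the log2 changes were -0.14 ± 0.93 (SE, adjusted p = 0.999) for mt-Nd3, 0.98 ± 0.74 (SE, adjusted p = 0.842) for mt-Nd4l, 0.40 ± 0.82 (SE, adjusted p = 0.999) for mt-Nd5 and 0.26 ± 0.81 (SE, adjusted p = 0.999) for mt-Nd6. In the 7-library scaled fit they were 1.19 ± 0.33 (SE, adjusted p = 0.0557), 1.72 ± 0.50 (SE, adjusted p = 0.0658), 1.67 ± 0.55 (SE, adjusted p = 0.0948) and 1.61 ± 0.50 (SE, adjusted p = 0.0807), in the same gene order. The summed FPKM of the 7 complex I genes was 40195 ± 9596 after hypoxia and 45624 ± 56763 after normoxia (SD, n = 4 each), and the normoxia mean without library 5 was 17398 ± 7267 (SD, n = 3).

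Complex III passes electrons on to cytochrome c, and its mitochondrial subunit is cytochrome b. mt-Cytb (ENSMUSG00000064370) had 12929, 16869.6, 9172 and 8296 FPKM in hypoxia libraries 1 to 4, against 10028, 5126, 6460.1 and 2413 FPKM in normoxia libraries 5 to 8. Every hypoxia library was above normoxia libraries 6, 7 and 8, and library 5 lay within the hypoxia range. The log2 change was 1.09 ± 0.65 (SE, adjusted p = 0.707) as deposited and 1.70 ± 0.39 (SE, adjusted p = 0.0286) in the 7-library scaled fit, which it passed.

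Complex IV, cytochrome c oxidase, reduces oxygen, and its catalytic core is encoded by 3 mitochondrial genes. mt-Co1 (ENSMUSG00000064351), which holds the oxygen-binding centre, had 14002, 23466, 8747 and 8126 FPKM in hypoxia libraries 1 to 4, against 9743, 5475, 8819 and 3078 FPKM in normoxia libraries 5 to 8. mt-Co2 (ENSMUSG00000064354), which receives electrons from cytochrome c, had 10646, 12519, 5065 and 4855 FPKM in hypoxia libraries 1 to 4, against 6708, 3665, 6346 and 1832 FPKM in normoxia libraries 5 to 8. mt-Co3 (ENSMUSG00000064358), the third core subunit, had 7832, 11376, 3711 and 3362 FPKM in hypoxia libraries 1 to 4, against 18101, 2703, 4489.6 and 1342 FPKM in normoxia libraries 5 to 8. Hypoxia libraries 1 and 2 were above 3 and 4 for all 3 genes, and normoxia library 7 lay above hypoxia libraries 3 and 4. The log2 changes as deposited were 1.003 ± 0.65 (SE, adjusted p = 0.768) for mt-Co1, 0.88 ± 0.69 (SE, adjusted p = 0.864) for mt-Co2 and 0.48 ± 0.78 (SE, adjusted p = 0.997) for mt-Co3. All 3 passed in the 7-library scaled fit, with 1.53 ± 0.37 (SE, adjusted p = 0.0351), 1.42 ± 0.34 (SE, adjusted p = 0.0352) and 1.49 ± 0.34 (SE, adjusted p = 0.0301) in that order.

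Complex V makes ATP from the proton gradient, and its proton channel includes 2 mitochondrial subunits whose genes overlap. mt-Atp8 (ENSMUSG00000064356) had 10385, 15465, 7234 and 7238 FPKM in hypoxia libraries 1 to 4, against 12836, 4935, 5876 and 2521 FPKM in normoxia libraries 5 to 8. mt-Atp6 (ENSMUSG00000064357), the channel subunit, had 11935, 16809, 7524 and 6599 FPKM in hypoxia libraries 1 to 4, against 3481, 4283, 6967 and 2339 FPKM in normoxia libraries 5 to 8. Library 5 was the second highest of the 8 for mt-Atp8 and the second lowest for mt-Atp6, although the genes share the 43 bases shown above. In library 5 a nuclear copy of mt-Atp6, described below, was at 4.74 times the level of the gene. In the other libraries that ratio was 1.006 to 1.04. The log2 changes were 0.79 ± 0.67 (SE, adjusted p = 0.886) for mt-Atp8 and 1.34 ± 0.66 (SE, adjusted p = 0.55) for mt-Atp6 as deposited, and 1.499 ± 0.38 (SE, adjusted p = 0.0422) and 1.58 ± 0.35 (SE, adjusted p = 0.0272) in the 7-library scaled fit, in which both passed. The summed FPKM of the complex V genes was 20797 ± 8543 after hypoxia and 10809.5 ± 4912 after normoxia (SD, n = 4 each), and the normoxia mean without library 5 was 8974 ± 3997 (SD, n = 3).

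**Figure D2:**
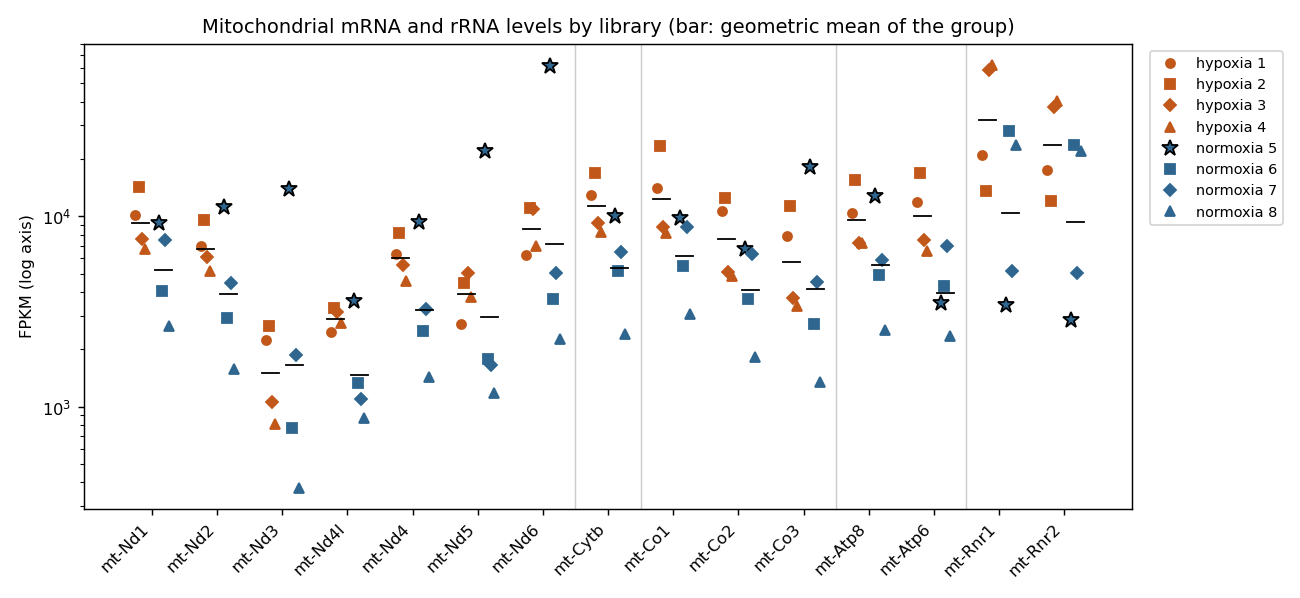
FPKM on a log axis of the 13 coding and 2 rRNA genes in each library, hypoxia in orange left of normoxia in blue, with the group's geometric mean as a bar and normoxia library 5 as an outlined star; vertical lines separate complex I, III, IV, V and the rRNAs. Normoxia library 8 is the lowest of the 8 libraries for all 13 coding genes, and library 5 is the highest for 7 of them and the lowest for both rRNAs.

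The plot of mRNA and rRNA levels shows the order of the libraries. Library 8 was the lowest of the 8 for 13 of 13 coding genes and 30 of the 37 members, and library 5 was the highest for 7 coding genes and 28 members. Hypoxia library 2 was highest for the other 6 coding genes. Within the hypoxia group, libraries 1 and 2 were both above libraries 3 and 4 for 10 of the 13 coding genes, the exceptions being mt-Nd4l, mt-Nd5 and mt-Nd6. Leaving out each library in turn from the values as deposited called 0 of the 37 members every time, in fits whose share of all genes called is not given here. The coding changes passed only when scaling and the removal of library 5 were combined, apart from the 3 called with library weights (mt-Nd1, mt-Nd2 and mt-Nd4, at a background of 2.49% of genes called higher) and the covariate fit above. With nuclear protein-coding scaling in place of TMM, also without library 5 and chosen after seeing the data, 1 member was called higher, mt-Co3, at a background of 3.27% of genes called higher.

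The tRNAs are adaptors for translation and also mark the cutting sites between the mRNAs. A mature tRNA is short and has no poly(A) tail, so what a poly(A) library counts at these genes can also be unprocessed precursor, and the counting here cannot separate them. The summed FPKM of the 22 tRNA genes was 2947, 5447, 4851 and 3237 in hypoxia libraries 1 to 4, against 61321, 1997, 3048 and 1202 in normoxia libraries 5 to 8. Library 5 was more than 10 times the next highest library, and without it every hypoxia library except library 1 lay above all normoxia libraries. The mean was 4121 ± 1218 after hypoxia and 16892 ± 29629 after normoxia (SD, n = 4 each), and the normoxia mean without library 5 was 2082 ± 926 (SD, n = 3).

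mt-Te, the most abundant tRNA, had 1735, 3306, 2648 and 1906 FPKM in hypoxia libraries 1 to 4, against 20862, 976, 1339.7 and 544 FPKM in normoxia libraries 5 to 8. Every hypoxia library was above normoxia libraries 6, 7 and 8. Its log2 change was 0.24 ± 0.91 (SE, adjusted p = 0.999) as deposited and 1.68 ± 0.44 (SE, adjusted p = 0.0453) in the 7-library scaled fit, which it passed. The other 2 that passed there were measured at low levels. mt-Td, for aspartate, had 7.95, 8.52, 6.64 and 3.81 FPKM in hypoxia libraries 1 to 4, against 118, 3.46, 5.96 and 2.04 FPKM in normoxia libraries 5 to 8. mt-Ts1, for serine, had 8.41, 12.2, 5.98 and 5.71 FPKM in hypoxia libraries 1 to 4, against 583, 3.45, 10.8 and 3.32 FPKM in normoxia libraries 5 to 8. Outside library 5 the groups overlapped for both. mt-Td rested on 7, 8, 4 and 2 estimated fragments in hypoxia libraries 1 to 4, and 2, 6 and 1 in normoxia libraries 6 to 8. For mt-Ts1 these were 7, 12, 3 and 4 in hypoxia, and 2, 11 and 2 in normoxia libraries 6 to 8. Both calls therefore rest on very few fragments. The log2 changes were -0.43 ± 0.85 (SE, adjusted p = 0.999) and 1.08 ± 0.24 (SE, adjusted p = 0.0287) for mt-Td, and -1.11 ± 1.05 (SE, adjusted p = 0.915) and 0.86 ± 0.21 (SE, adjusted p = 0.0343) for mt-Ts1.

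The run of tRNAs between mt-Nd4 and mt-Nd5, whose sequences are given above, includes mt-Tl2 and mt-Ts2, the tRNAs in which library 5 stood furthest from the other libraries. mt-Th had 113, 161, 375 and 120.4 FPKM in hypoxia libraries 1 to 4, against 6133, 81.2, 168 and 100.1 FPKM in normoxia libraries 5 to 8. mt-Ts2 had 81.7, 128, 193 and 85.1 FPKM in hypoxia libraries 1 to 4, against 9046, 78.8, 164 and 61.1 FPKM in normoxia libraries 5 to 8. mt-Tl2 had 49.3, 88.7, 79.4 and 44.2 FPKM in hypoxia libraries 1 to 4, against 7267, 56.4, 115 and 31.0 FPKM in normoxia libraries 5 to 8. Outside library 5 the groups overlapped for all 3. In library 5 the level was 50.9, 106 and 129 times the median of the other 7 libraries, in that order. mt-Tg, between mt-Co3 and mt-Nd3, had 70.8, 123, 134 and 81.9 FPKM in hypoxia libraries 1 to 4, against 6207, 76.3, 227 and 40.5 FPKM in normoxia libraries 5 to 8, with library 5 at 75.8 times that median. The log2 changes as deposited were -0.84 ± 1.08 (SE, adjusted p = 0.975) for mt-Th, -1.34 ± 1.14 (SE, adjusted p = 0.888) for mt-Ts2, -1.64 ± 1.17 (SE, adjusted p = 0.82) for mt-Tl2 and -1.38 ± 1.11 (SE, adjusted p = 0.871) for mt-Tg. They turned positive in the 7-library scaled fit, with 0.91 ± 0.63 (SE, adjusted p = 0.426), 0.61 ± 0.50 (SE, adjusted p = 0.515), 0.40 ± 0.39 (SE, adjusted p = 0.6) and 0.45 ± 0.48 (SE, adjusted p = 0.63), and none passed.

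mt-Tl1, the leucine tRNA after the rRNAs, differed less: it had 183, 441, 217 and 216 FPKM in hypoxia libraries 1 to 4, against 459, 146, 214 and 107 FPKM in normoxia libraries 5 to 8. mt-Tp, for proline, had 279, 424, 134 and 80.1 FPKM in hypoxia libraries 1 to 4, against 649.6, 128, 197 and 52.5 FPKM in normoxia libraries 5 to 8. mt-Tf, for phenylalanine, lies at the start of the rRNA precursor and had 3.25, 4.31, 9.13 and 7.01 FPKM in hypoxia libraries 1 to 4, against 2.50, 3.37, 1.85 and 6.63 FPKM in normoxia libraries 5 to 8. It was the 1 tRNA of the 22 in which library 5 was not the highest library. None of the 3 passed in either fit, and their log2 changes as deposited were 0.32 ± 0.82 (SE, adjusted p = 0.999), 0.14 ± 0.90 (SE, adjusted p = 0.999) and 0.69 ± 0.56 (SE, adjusted p = 0.876), in that order. In the 7-library scaled fit they were 1.03 ± 0.36 (SE, adjusted p = 0.114), 1.08 ± 0.35 (SE, adjusted p = 0.088) and 0.82 ± 0.77 (SE, adjusted p = 0.584).

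The minus-strand tRNAs between mt-Nd2 and mt-Co1 lie in a cluster. mt-Ta, for alanine, had 49.1 to 147 FPKM after hypoxia, against 1529 FPKM in normoxia library 5 and 37.8 to 98.0 FPKM in normoxia libraries 6 to 8. mt-Tn, for asparagine, had 65.8 to 178 FPKM after hypoxia, against 2075 FPKM in normoxia library 5 and 48.4 to 134 FPKM in normoxia libraries 6 to 8. The cluster's other genes, mt-Tc and mt-Ty for cysteine and tyrosine, behaved likewise in library 5. mt-Tc had 32.5 to 142 FPKM after hypoxia, against 1380.2 FPKM in normoxia library 5 and 22.8 to 53.1 FPKM in normoxia libraries 6 to 8. mt-Ty had 35.3 to 150.3 FPKM after hypoxia, against 1099 FPKM in normoxia library 5 and 20.4 to 46.5 FPKM in normoxia libraries 6 to 8. On the plus strand beside them, mt-Tw, for tryptophan, had 19.3 to 48.5 FPKM after hypoxia, against 169.7 FPKM in normoxia library 5 and 18.4 to 31.7 FPKM in normoxia libraries 6 to 8. Between mt-Nd1 and mt-Nd2 lie 3 tRNAs. mt-Ti, for isoleucine, had 53.5 to 104 FPKM after hypoxia, against 428 FPKM in normoxia library 5 and 14.6 to 71.9 FPKM in normoxia libraries 6 to 8. mt-Tq, for glutamine and on the minus strand, had 22.2 to 55.4 FPKM after hypoxia, against 76.9 FPKM in normoxia library 5 and 21.9 to 28.6 FPKM in normoxia libraries 6 to 8. mt-Tm, for methionine, had 67.8 to 130.4 FPKM after hypoxia, against 226 FPKM in normoxia library 5 and 36.2 to 67.5 FPKM in normoxia libraries 6 to 8, so that every hypoxia library was above normoxia libraries 6, 7 and 8 there.

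The 4 remaining tRNAs lie on the plus strand. mt-Tr, for arginine, had 34.8 to 67.3 FPKM after hypoxia, against 2084 FPKM in normoxia library 5 and 16.6 to 51.2 FPKM in normoxia libraries 6 to 8. mt-Tk, for lysine, had 4.18 to 14.0 FPKM after hypoxia, against 548 FPKM in normoxia library 5 and 4.29 to 17.6 FPKM in normoxia libraries 6 to 8. For mt-Tv, the valine tRNA between the rRNAs, the values were 2.67 to 8.29 FPKM after hypoxia, against 168 FPKM in normoxia library 5 and 3.08 to 4.99 FPKM in normoxia libraries 6 to 8. mt-Tt, for threonine, had 9.32 to 20.5 FPKM after hypoxia, against 210.1 FPKM in normoxia library 5 and 4.61 to 10.02 FPKM in normoxia libraries 6 to 8. None of the 12 tRNAs of these last 2 paragraphs passed in either fit, with log2 changes of -1.48 for mt-Tk to 0.38 for mt-Tm as deposited and 0.31 for mt-Tv to 1.55 for mt-Ty in the 7-library scaled fit. Over the 22 tRNAs, library 5 exceeded 10 times the median of the other 7 in 15.

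**Figure D3:**
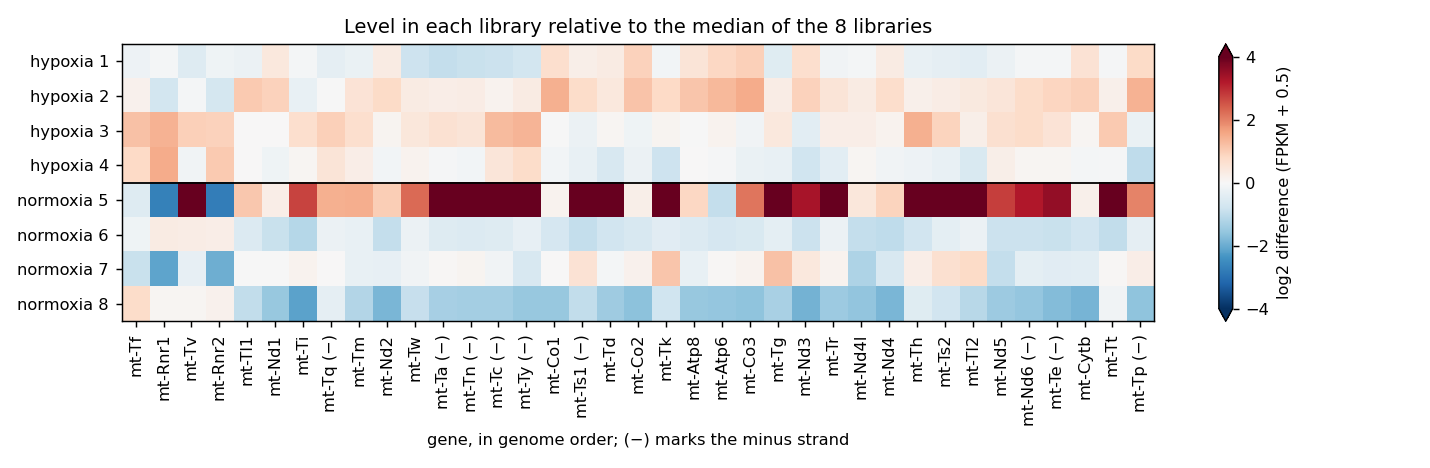
Colour map of log2(FPKM + 0.5) minus the median of the 8 libraries for the 37 genes in genome order (columns; a minus sign marks the minus strand) in each library (rows, hypoxia above normoxia), with the scale ending at 4 on either side of 0. Normoxia library 5 is dark red at most tRNAs and over the stretch holding mt-Nd5, mt-Nd6 and mt-Te and blue at both rRNAs, and normoxia library 8 is blue over most of the genome.

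The map of levels along the genome shows where library 5 differed. Relative to the other 7 libraries its coding RNA had another make-up: the share of 12 of the 13 coding genes in their summed FPKM lay outside the range of those libraries, the exception being mt-Nd4l. mt-Nd6 took 32.1% of the coding sum in library 5, against 5.96% to 13.6% in the other 7. mt-Nd5 took 11.4% in library 5, against 2.59% to 6.22%, and mt-Nd3 took 7.23%, against 1.16% to 2.92%. mt-Atp6, mt-Co1 and mt-Cytb took less there than in any other library, with 1.82%, 5.10% and 5.24%. These shares leave out reads placed on nearly identical nuclear copies on chromosome 1, described below. In library 5 the copy of mt-Atp6 was at 4.74 times its gene, against 1.006 to 1.04 in the other 7. The copy of mt-Co1 was at 1.999 times its gene there, against 0.573 to 0.765. The part of the copies in the shares was not tested.

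Ratios of 2 transcripts within a library do not depend on scaling between libraries. Each was compared with a two-sided exact permutation test over 70 relabellings, which can give no p below 0.0286, and p-values were adjusted over the 4 ratios. The ratio of mt-Rnr2 to mt-Rnr1, neighbours on the same precursor, was 0.8286, 0.886, 0.633 and 0.650 in hypoxia libraries 1 to 4, against 0.840, 0.845, 0.984 and 0.933 in normoxia libraries 5 to 8. Hypoxia libraries 1, 3 and 4 were below every normoxia library, and hypoxia library 2 lay within the normoxia range. The mean log2 difference was -0.28 (exact permutation p = 0.114, adjusted 0.229). It was -0.31 without normoxia library 5 (exact permutation p = 0.143), and the p was 0.114 to 0.229 with any library but hypoxia library 2 left out. Leaving out hypoxia library 2, the only one that overlapped the normoxia group, gave -0.36 with groups that do not overlap by that choice, so that its p of 0.0286 (exact permutation, not adjusted) is the smallest possible and no added evidence.

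The ratio of mt-Cytb to mt-Nd1, the last and the first mRNA of the plus strand, was 1.28, 1.18, 1.21 and 1.23 in hypoxia libraries 1 to 4, against 1.095, 1.26, 0.858 and 0.906 in normoxia libraries 5 to 8. The hypoxia values lay close together, and normoxia library 6 was the only normoxia value among them. The log2 difference was 0.27 (exact permutation p = 0.114, adjusted 0.229). Without normoxia library 5 it was 0.303 (exact permutation p = 0.114), and over the libraries other than normoxia library 6, left out in turn, it ran between 0.19 and 0.303 (exact permutation p = 0.114 to 0.257). Leaving out normoxia library 6, the only one among the hypoxia values, gave 0.37, and its p of 0.0286 (exact permutation, not adjusted) is again fixed by that choice. The ratio averaged 1.23 ± 0.0427 after hypoxia and 1.03 ± 0.185 after normoxia (SD, n = 4 each).

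The ratio of mt-Nd6 to mt-Cytb, neighbours annotated on opposite strands, was 0.484, 0.656, 1.195 and 0.843 in hypoxia libraries 1 to 4. In normoxia libraries 5 to 8 it was 6.13, 0.717, 0.774 and 0.934. Strand here is that of the annotation, and whether the reads kept their strand was not examined. Library 5 was far above the rest, and the other 3 normoxia values lay within the hypoxia range. The log2 difference was -0.83 (exact permutation p = 0.40, adjusted 0.533) with library 5 and -0.095 (exact permutation p = 0.771) without it. The ratio of mt-Nd1 to mt-Rnr2, the first mRNA against the rRNA before it, was 0.577, 1.196, 0.203 and 0.167 in hypoxia libraries 1 to 4, against 3.20, 0.172, 1.49 and 0.121 in normoxia libraries 5 to 8. The values ran widely in both groups and overlapped, and the log2 difference was -0.52 (exact permutation p = 0.714, adjusted 0.714). It became 0.32 without normoxia library 5 (exact permutation p = 0.80).

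**Figure D4:**
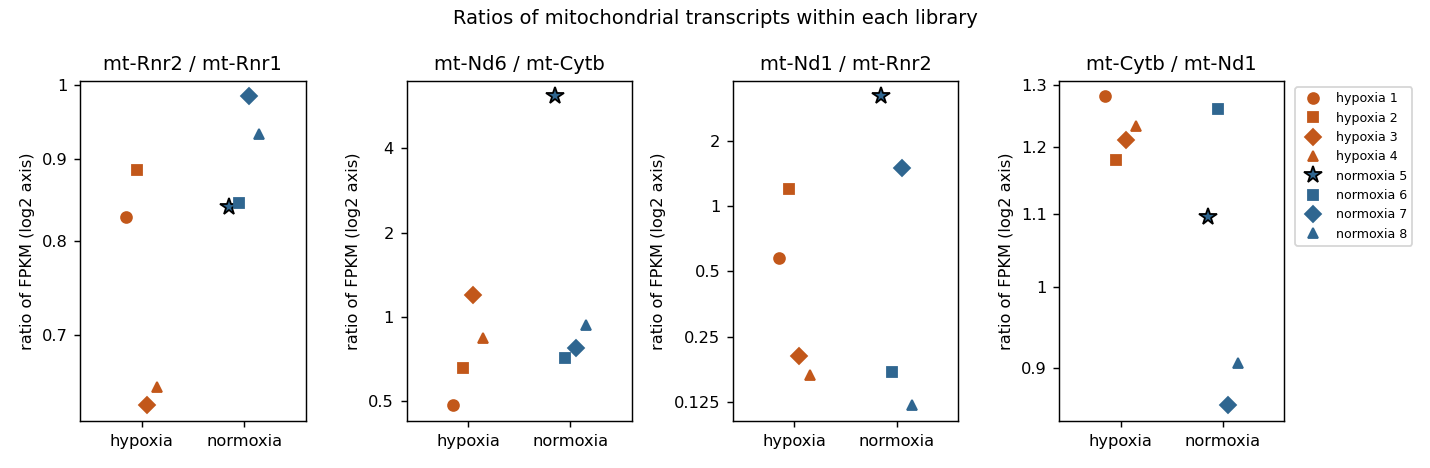
Ratio of FPKM between 2 mitochondrial transcripts in each library, on log2 axes, for 4 pairs of genes, hypoxia in orange left of normoxia in blue, with normoxia library 5 as an outlined star. The groups overlap in all 4 panels, and library 5 lies at 6.13 for mt-Nd6 to mt-Cytb and 3.20 for mt-Nd1 to mt-Rnr2.

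The plot of within-library ratios gives the 4 pairs side by side. Of further pairs that are described without a test, mt-Atp8 to mt-Atp6 was 0.843 to 1.15 in 7 libraries and 3.69 in library 5, and mt-Nd5 to mt-Cytb was 0.210 to 0.548 in 7 libraries and 2.18 in library 5. The mt-Atp6 values leave out reads placed on its nuclear copy, which in library 5 was at 4.74 times the gene. mt-Te to mt-Nd6, neighbours on the minus strand, was 0.340 in library 5, just above the 0.241 to 0.299 of the other 7. mt-Nd4l to mt-Nd4 was 0.386 in library 5, inside the range of 0.339 to 0.614.

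Sequences almost identical to 7 of the mRNAs are also annotated in the nucleus, as pseudogenes in a single block at chr1:24611535-24616197 on the minus strand, and reads of the shared stretches cannot be assigned to either place. In 5 of the 7 pairs no base differed over the aligned stretch, and in 2 pairs 1 base did. The ends that hold those bases are shown, with the base in capitals. The mt-Nd3 copy, Gm28438, carries T3C, with positions counted from 1 at the first base of mt-Nd3, and the mt-Co1 copy, Gm29216, carries A1066T, counted from the first base of mt-Co1. The stretches lie at chrM:9459-9481 and chrM:6390-6413 on the plus strand and at chr1:24613097-24613119 and chr1:24616165-24616188 on the minus strand.
mt-Nd3: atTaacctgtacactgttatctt
Gm28438: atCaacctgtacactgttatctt
mt-Co1: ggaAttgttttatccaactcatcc
Gm29216: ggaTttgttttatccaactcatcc

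For 5 of the 7 copies the FPKM was close to that of the mitochondrial gene in most libraries. The ratio of Gm28661 to mt-Co2 was 0.985, 0.969, 0.982 and 0.958 in hypoxia libraries 1 to 4, against 0.978, 0.979, 0.983 and 0.960 in normoxia libraries 5 to 8. Gm28437 to mt-Co3, Gm28438 to mt-Nd3 and Gm10222 to mt-Nd4l were also near 1, between 0.916 and 0.984 in the libraries other than library 5. In library 5 the mt-Nd3 copy was at 0.837 of its member. The ratio of Gm10925 to mt-Atp6 was 1.04, 1.019, 1.03 and 1.021 in hypoxia libraries 1 to 4, against 4.74, 1.04, 1.012 and 1.006 in normoxia libraries 5 to 8, so that library 5 alone departed from 1. The shorter copies Gm29216 and Gm28439 were at 0.573 to 0.765 of mt-Co1 and 0.409 to 0.620 of mt-Nd4 in those 7 libraries, and at 1.999 and 0.257 in library 5. Copies of 90% to 99% identity, 9 pairs elsewhere in the genome, reached at most 113 FPKM. Adding each chromosome 1 copy to its member, an alternative chosen after seeing the data, left the count of members called at 0 and reversed no sign.

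**Figure D5:**
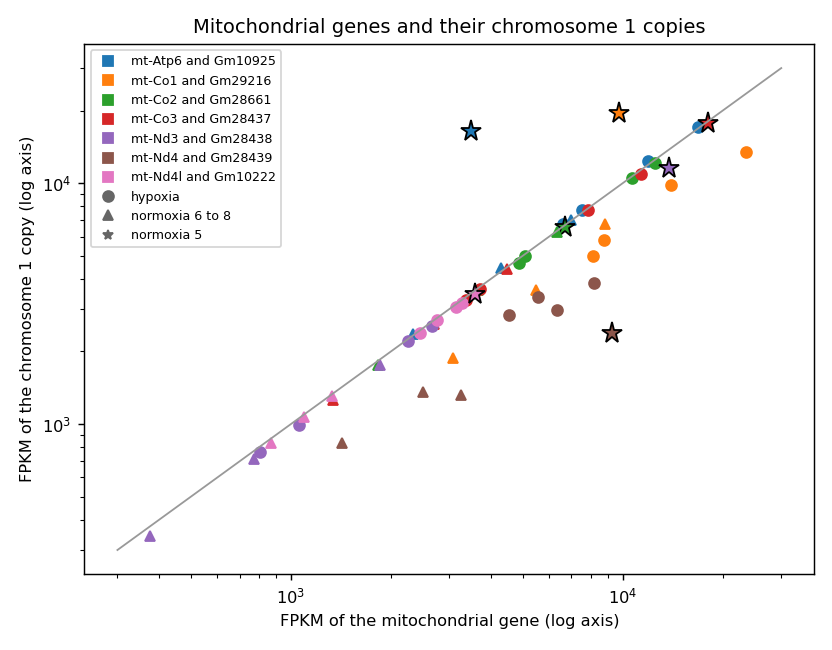
FPKM of each chromosome 1 copy against that of its mitochondrial gene on log axes, 7 pairs by colour in 8 libraries, with circles for hypoxia, triangles for normoxia libraries 6 to 8, outlined stars for normoxia library 5 and a line of equality. Most points lie on the line, and those of mt-Co1 and mt-Nd4 lie under it, except that library 5 lies above it for mt-Atp6 and mt-Co1.

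The plot of genes against copies shows that the ratio of copy to gene in library 5 lay outside the range of the other 7 libraries for mt-Atp6, mt-Co1, mt-Nd4 and mt-Nd3. How reads were divided between both places was not measured, and its part in the levels of these members was not tested beyond adding the copies.

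The level of mitochondrial RNA was also set against nuclear RNA within each library. The coding FPKM as a percent of the summed FPKM of nuclear protein-coding genes was 80.7, 87.4, 161 and 128% in hypoxia libraries 1 to 4, against 95.1, 59.8, 38.4 and 47.7% in normoxia libraries 5 to 8. The 4 hypoxia libraries were above normoxia libraries 6, 7 and 8, and library 5 lay between hypoxia libraries 2 and 4. The mean was 114 ± 37.7 after hypoxia and 60.2 ± 24.9 after normoxia (SD, n = 4 each), in percent, and the normoxia mean without library 5 was 48.6 ± 10.7 (SD, n = 3). The ratio of the 13 coding genes to the nuclear subunits of complexes I, III, IV and V was 19.9, 23.7, 46.6 and 39.8 in hypoxia libraries 1 to 4, against 13.4, 21.8, 12.8 and 22.1 in normoxia libraries 5 to 8. Here hypoxia libraries 3 and 4 were highest, and hypoxia library 1 lay among the normoxia libraries. The nuclear sum also holds Atpif1, an inhibitor of complex V.

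The nuclear partners were taken from written lists, chosen with earlier results of these data known. The complex V list also holds Atpif1, an inhibitor of the enzyme and not a subunit of it. By limma on the values as deposited, 0 of 36 genes of the complex I list, 0 of 9 of complex III, 0 of 11 of complex IV and 0 of 16 of complex V were called, at a background of 0.907% of all genes. Their medians were 0.0075, 0.062, -0.16 and -0.0039 on the log2 scale. In the 7-library scaled fit 9, 3, 1 and 1 of them were called higher and none lower, at the background of 5.77% of all genes called higher in that fit, with medians of 0.85, 0.83, 0.88 and 0.69. Ndufs1, a core subunit of complex I, had 14.1, 18.4, 6.83 and 6.80 FPKM in hypoxia libraries 1 to 4, against 2.35, 6.25, 9.55 and 3.54 FPKM in normoxia libraries 5 to 8, with a log2 change of 1.06 ± 0.63 (SE, adjusted p = 0.704) as deposited and 1.05 (adjusted p = 0.013) in the 7-library scaled fit. Uqcrc2, a core protein of complex III, had log2 changes of 0.87 ± 0.78 (SE, adjusted p = 0.903) and 0.95 (adjusted p = 0.0448). Cox8a, a small subunit of complex IV, had -0.26 ± 0.94 (SE, adjusted p = 0.999) and 0.95 (adjusted p = 0.0393). Atp5d, the delta subunit of complex V, had -0.72 ± 0.99 (SE, adjusted p = 0.984) and 0.81 (adjusted p = 0.0463). Cox8a and Atp5d were the only genes of their lists called in the 7-library scaled fit. Cox7c and Atpif1, with the smallest p of those lists as deposited, were not called there, at 0.83 (adjusted p = 0.165) and 0.17 (adjusted p = 0.745). Nor were Ndufb2 of complex I, at 0.49 (adjusted p = 0.0975), and Uqcrfs1 of complex III, at 1.15 (adjusted p = 0.065).

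None of the 18 tested genes for transcription and copying of mitochondrial DNA, a list that holds the polymerase Polrmt and the packaging factor Tfam, was called in either fit. The background for this list and the next was 0.907% of all genes called as deposited and 11.1% in the 7-library scaled fit. In so short a list few or no calls would be usual at such shares. The median log2 change was -0.023 as deposited and 0.097 in the 7-library scaled fit. Mterf2, of the family of mitochondrial termination factors, had the smallest p there as deposited, with log2 changes of 0.49 ± 0.44 (SE, adjusted p = 0.903) and 0.46 (adjusted p = 0.147), and Mterf1b, of the same family, had -0.44 ± 0.42 (SE, adjusted p = 0.913) and -0.42 (adjusted p = 0.461). None of the 18 tested genes for cutting and modifying mitochondrial RNA, such as Elac2, which trims tRNA ends, was called either, with medians of 0.031 and 0.31. Qtrt1, which inserts queuosine into tRNAs, and Mto1, which modifies tRNA wobble bases, had the smallest p as deposited, with log2 changes of -0.83 ± 0.52 (SE, adjusted p = 0.741) and -0.32 (adjusted p = 0.5) for Qtrt1. For Mto1 they were 0.54 ± 0.50 (SE, adjusted p = 0.911) and 0.42 (adjusted p = 0.151).

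Of 17 tested genes for the stability and decay of mitochondrial RNA, 0 were called as deposited and 2 higher in the 7-library scaled fit, in which 5.77% of all genes were called higher and 5.32% lower. Grsf1, an RNA-binding protein of the granules in which mitochondrial RNA is processed, had 22.3, 34.0, 10.1 and 11.3 FPKM in hypoxia libraries 1 to 4, against 2.91, 10.7, 21.2 and 5.67 FPKM in normoxia libraries 5 to 8. Its log2 change was 1.07 ± 0.71 (SE, adjusted p = 0.783) as deposited and 0.92 (adjusted p = 0.0299) in the 7-library scaled fit. Fastkd1, of a family of mitochondrial RNA-binding proteins, had log2 changes of 0.41 ± 0.47 (SE, adjusted p = 0.954) and 0.72 (adjusted p = 0.0317). Regulators of mitochondrial content numbered 14, with 0 called as deposited and, in the 7-library scaled fit, 3 higher and 1 lower, to be read against those backgrounds. Ppargc1a, a coactivator of mitochondrial biogenesis, had 6.99, 10.8, 6.04 and 8.86 FPKM in hypoxia libraries 1 to 4, against 1.04, 3.96, 3.48 and 2.61 FPKM in normoxia libraries 5 to 8. Every hypoxia library was above every normoxia library, library 5 included, and the log2 change was 1.48 ± 0.56 (SE, adjusted p = 0.291) as deposited and 1.42 (adjusted p = 0.0417) in the 7-library scaled fit. Sirt3, a mitochondrial deacetylase, had log2 changes of 0.60 ± 0.56 (SE, adjusted p = 0.914) as deposited and 1.14 (adjusted p = 0.0276) in the 7-library scaled fit. Esrra, a nuclear receptor that acts with Ppargc1a, had 0.46 ± 0.60 (SE, adjusted p = 0.977) and 0.68 (adjusted p = 0.036). For Myc, a growth regulator, they were -1.28 ± 0.58 (SE, adjusted p = 0.481) and -1.504 (adjusted p = 0.00727). Esrrb passed in neither fit, with 1.35 ± 0.51 (SE, adjusted p = 0.296) and 1.52 (adjusted p = 0.15).

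Summed levels of kidney cell type markers were read in the same libraries. The 10 proximal tubule markers had a summed level of 771 to 1880 FPKM after hypoxia, against 155 to 1820 FPKM after normoxia and 155 to 653 FPKM without library 5. As deposited 0 of the 10 were called, with a median log2 change of 1.07, and 6 were higher in the 7-library scaled fit (5.77% of all genes called higher), among them Aqp1, a water channel, with 2.86 (adjusted p = 0.0132). The 6 thick ascending limb markers had a summed level of 415 to 1801 FPKM after hypoxia, against 157 to 584 FPKM after normoxia. Of these 1 was called higher as deposited, where 0.305% of all genes were. It was Egf, a growth factor made by this segment, with 4.12 ± 0.69 (SE, adjusted p = 0.00344). In the 7-library scaled fit 4 were called higher. The 6 markers of the distal and collecting tubule summed to 96.9 to 272 FPKM after hypoxia, against 22.2 to 123 FPKM after normoxia. As deposited 2 were called higher, against the same 0.305% of all genes. These were Pvalb, a calcium-binding protein, with 3.12 ± 0.49 (SE, adjusted p = 0.00289) and Calb1, another, with 3.10 ± 0.64 (SE, adjusted p = 0.0198). In the 7-library scaled fit 5 of these 6 were called higher. In normoxia libraries 6, 7 and 8 the FPKM of Pvalb was 0.

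The 6 markers of injured tubule ran the other way, at 33.1 to 240 FPKM after hypoxia, against 332 to 1345 FPKM after normoxia. Of these 2 were called lower as deposited, where 0.602% of all genes were. They were Sox9, a transcription factor of tubular repair, with -2.14 ± 0.45 (SE, adjusted p = 0.0221) and Krt20, an injury keratin, with -3.10 ± 0.73 (SE, adjusted p = 0.0385). In the 7-library scaled fit 5 were called lower, where 5.32% of all genes were. The 8 markers of macrophages and monocytes summed to 23.7 to 115 FPKM after hypoxia, against 137 to 800 FPKM after normoxia, with 0 called as deposited and 7 lower in the 7-library scaled fit. The 6 markers of fibroblasts and pericytes summed to 26.5 to 61.8 FPKM after hypoxia, against 107 to 330 FPKM after normoxia, with 0 called as deposited and 4 lower in that fit. The 6 endothelial markers, at 17.6 to 36.3 FPKM after hypoxia and 15.04 to 45.4 FPKM after normoxia, had 0 called in both fits. Of 6 markers of muscle and brown fat, which kidney should lack, 1 was at 0 in every library and 5 in at least 1 library. Ucp1, the uncoupling protein of brown fat, had 0.800, 0, 17.0 and 1.66 FPKM in hypoxia libraries 1 to 4, against 3.59, 0.850, 0 and 0 FPKM in normoxia libraries 5 to 8, with hypoxia library 3 far above the rest, and it did not pass in either fit. Acta1, a skeletal muscle actin, had 0.270, 0, 0 and 0.0700 FPKM in hypoxia libraries 1 to 4, against 2.13, 0.370, 1.88 and 1.08 FPKM in normoxia libraries 5 to 8 and was called lower in the 7-library scaled fit, with a log2 change of -1.23 (adjusted p = 0.044). The part of these cell type differences in the mitochondrial levels was not tested.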

How the data were processed

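Poly(A) RNA of 8 kidney libraries was measured, with groups and library numbers taken from the sample titles and treatments. The authors deposited FPKM per gene, per the file headers, and no counts, so depth was estimated from the spacing of low FPKM. The submitters' processing notes name HISAT2, StringTie and edgeR, without versions or roles. The authors' genome build is not given in the sources used here. All 34450 identifiers matched GENCODE M21.

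Values were tested as log2(FPKM + 0.5), without further scaling, in 14444 genes with a mean of at least 0.5 FPKM, in limma 3.58.1 (R 4.3.3, two-sided, eBayes with a mean-variance trend), with Benjamini-Hochberg adjustment over all genes and a threshold of 0.05. This scale understates changes of low genes. TMM factors were computed from the published formula, trimming 30% of ratios and 5% of levels at each end. The 4 within-library ratios had exact permutation tests. Nuclear copies were found with blastn 2.17.0 (at least 99% identity over 100 bases or more). The limma step was tested on simulated data.

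The members, the lists, the alternatives and the rule for named genes were chosen with earlier results of these data known. The rule took all 37 members and, of each list, up to 4 genes passing the test or the 2 with the smallest p. Not every gene it gives is printed. Alternatives were a pseudocount of 0.1 or 1, the filter dropped or raised to 2 FPKM, 4 scalings, the variance model, library weights (limma's estimate stopped short of its convergence tolerance), an adjusted p of 0.10, the ribosomal share as covariate, each library left out, and TMM scaling without normoxia library 5. Chosen after seeing the data were the addition of the chromosome 1 copies and scaling to nuclear protein-coding FPKM without library 5.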

Additional observations from a re-analysis of the deposited data

Results flagged for a closer look

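Of 82 groups of 4 libraries looked at, 4 held a library whose gap to the nearest of the others, on the log2 scale and divided by the group's range, exceeded Dixon's 95% critical value. Chance flags about 1 in 20 groups, and so about 4 of 82. All 4 were in the normoxia group, and the library that stood apart was library 5 each time. mt-Nd5, the complex I pump subunit, had 2715 to 5026 FPKM in the hypoxia libraries, against 21882 FPKM in normoxia library 5 and 1174 to 1772 FPKM in the other 3 normoxia libraries. The histidine tRNA mt-Th had 6133 FPKM in library 5, against 81.2 to 168 FPKM in the other 3. The valine tRNA mt-Tv, between the rRNAs, had 168 FPKM in library 5, against 3.08 to 4.99 FPKM in the other 3. The ratio of mt-Nd6 to mt-Cytb, genes on opposite strands, was 6.13 in library 5, against 0.717 to 0.934 in the other 3.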

How the results depend on the processing

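With all 8 libraries as deposited, 0 members were called higher and 0 lower, and so also with each library left out, with other pseudocounts, filters, variance models or an adjusted p of 0.10, with quantile normalization, and with TMM or nuclear protein-coding scaling of all 8. Of all genes, 0.907% were called as deposited, 2.53% with TMM scaling of all 8 and 4.35% with quantile normalization. That share is not given here for the other settings that called 0. The count called higher was 12 with TMM scaling without normoxia library 5, where 5.77% of all genes were called higher. It was 3 with library weights (2.49% of all genes) and 3 with the ribosomal share as covariate (0.623%). With nuclear protein-coding scaling without library 5, chosen after seeing the data, it was 1, mt-Co3 (3.27%). No alternative called a member lower.

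Log2 changes of single members turned sign as follows, and the cause was not tested. With TMM scaling these were mt-Ty (0.19) and mt-Nd3 (0.064). With TMM factors from genes other than these and rRNA these were mt-Ty (0.18) and mt-Nd3 (0.057). With quantile normalization these were mt-Nd1 (-0.27), mt-Tw (0.20), mt-Ty (0.45), mt-Td (0.17), mt-Co3 (-0.11), mt-Nd5 (-0.22), mt-Nd6 (-0.89), mt-Te (-0.53) and mt-Tt (0.060). With library weights these were mt-Tw (0.31), mt-Ta (0.54), mt-Tn (0.51), mt-Tc (0.94), mt-Ty (0.94), mt-Ts1 (0.86), mt-Td (0.66), mt-Tk (0.23), mt-Tg (0.33), mt-Nd3 (0.67), mt-Tr (0.18), mt-Th (1.08), mt-Ts2 (0.52), mt-Tl2 (0.046) and mt-Tt (1.28). With TMM scaling without library 5 these were mt-Tv (0.31), mt-Tw (0.75), mt-Ta (0.88), mt-Tn (0.84), mt-Tc (1.24), mt-Ty (1.55), mt-Ts1 (0.86), mt-Td (1.08), mt-Tk (0.33), mt-Tg (0.45), mt-Nd3 (1.19), mt-Tr (0.88), mt-Th (0.91), mt-Ts2 (0.61), mt-Tl2 (0.40) and mt-Tt (0.94). With the ribosomal covariate these were mt-Ty (0.16) and mt-Nd3 (0.15). With nuclear protein-coding scaling these were mt-Tw (0.035), mt-Ty (0.24) and mt-Nd3 (0.11). With that scaling without library 5 these were mt-Tw (0.40), mt-Ta (0.51), mt-Tn (0.48), mt-Tc (0.88), mt-Ty (1.19), mt-Ts1 (0.53), mt-Td (0.75), mt-Tg (0.091), mt-Nd3 (0.82), mt-Tr (0.52), mt-Th (0.55), mt-Ts2 (0.25), mt-Tl2 (0.035) and mt-Tt (0.60). 

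With each library left out in turn, 23 members reached both signs, with the lowest and highest values of -1.80 and 0.050 for mt-Tv, -0.47 and 1.14 for mt-Ti, -0.15 and 0.48 for mt-Tq, -0.60 and 0.45 for mt-Tw, -1.200 and 0.57 for mt-Ta, -1.26 and 0.54 for mt-Tn, -1.03 and 0.93 for mt-Tc, -0.66 and 1.25 for mt-Ty, -1.85 and 0.57 for mt-Ts1, -1.06 and 0.79 for mt-Td, -2.24 and 0.039 for mt-Tk, -0.063 and 1.19 for mt-Co3, -2.26 and 0.15 for mt-Tg, -0.85 and 0.88 for mt-Nd3, -1.73 and 0.58 for mt-Tr, -1.47 and 0.61 for mt-Th, -2.09 and 0.31 for mt-Ts2, -2.52 and 0.094 for mt-Tl2, -0.039 and 1.37 for mt-Nd5, -0.29 and 1.302 for mt-Nd6, -0.38 and 1.38 for mt-Te, -1.14 and 0.65 for mt-Tt and -0.43 and 0.78 for mt-Tp. These member values are from unscaled fits, for which no median over all genes is given here. Among the ratios the range was -0.36 to -0.20 for mt-Rnr2 to mt-Rnr1, -1.13 to -0.095 for mt-Nd6 to mt-Cytb, -1.26 to 0.32 for mt-Nd1 to mt-Rnr2 and 0.19 to 0.37 for mt-Cytb to mt-Nd1. No paired analysis was possible because the groups share no library number.

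The FPKM carry no counts, so depth is an estimate without an interval. Of the 22 tRNAs, 7 had under 10 estimated fragments in at least 1 library. Without normoxia library 5 the log2 change turned positive for the 15 tRNAs that were negative with it, and the labels give no difference in how it was prepared. With 4 libraries a group the tests are limited, and cell composition and RNA per cell cannot be told apart.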

Other observations

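Complex II, succinate dehydrogenase, has no subunit encoded by the mitochondrial genome. Of its 4 nuclear subunits 0 were called by limma as deposited, at a background of 0.907% of all genes called. In the TMM-scaled fit without normoxia library 5, 1 was called higher, at a background of 5.77% of all genes called higher. That was Sdha, the catalytic subunit, which had 76.7, 119, 39.8 and 42.3 FPKM in hypoxia libraries 1 to 4, against 47.8, 34.6, 59.8 and 19.3 FPKM in normoxia libraries 5 to 8. Its log2 change was 0.74 ± 0.78 (SE, limma adjusted p = 0.936) as deposited and 1.16 (limma adjusted p = 0.0154) in that fit.

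The summed FPKM of the 22 tRNA genes is given here by annotated strand, and whether the reads kept their strand was not examined. The 8 minus-strand tRNAs summed to 2227, 4177, 3461 and 2419 FPKM in hypoxia libraries 1 to 4, against 28254, 1370, 1899 and 751 FPKM in normoxia libraries 5 to 8. The 14 plus-strand tRNAs summed to 719.8, 1271, 1390 and 818 FPKM in hypoxia libraries 1 to 4, against 33066, 627, 1149 and 452 FPKM in normoxia libraries 5 to 8. The minus-strand sum was the higher in every library but normoxia library 5, but this order came from mt-Te alone. mt-Te had 1735, 3306, 2648 and 1906 FPKM in hypoxia libraries 1 to 4. In normoxia libraries 5 to 8 it had 20862, 976, 1339.7 and 544 FPKM. Without mt-Te the minus-strand sum was below the plus-strand sum in every library.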
